A study of Mus musculus with 16 samples.

Results

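Interferon-stimulated genes are the genes that cells switch on after type I interferon binds its receptor. The 34 studied here are a list of well-known members of this response, taken by symbol from the table of read counts of a mouse RNA-seq series. All 34 of them were among the 23159 symbols of that table, where I830012O16Rik is the older symbol of Ifit3b and H28 that of Ifi44l. The libraries were made from macrophages of bronchoalveolar lavage fluid of wild-type (WT) mice and of mice with a knockout of Tlr3 (TLR3-KO), the endosomal receptor for double-stranded RNA. In each genotype 4 libraries came from controls and 4 from mice titled injured, whose treatment label names a preceding pneumonia. The protocols describe inoculation of the hypopharynx under isoflurane with saline or with Klebsiella pneumoniae strain 43816, serotype 2, prepared at 500 CFU in 30 µl. The control labels give the treatment as none, and whether those mice received the saline is not stated. Age, strain background, the construction of the knockout and the time of lavage are not given in the sources used here. The labels do not say that each library is a separate mouse, so that p-values measure the spread between libraries.

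Type I interferon acts through the receptor chains IFNAR1 and IFNAR2 and the kinases JAK1 and TYK2. They activate the complex ISGF3, which holds STAT2 and IRF9 and binds the interferon-stimulated response element (ISRE) in the promoters of the target genes. Lung macrophages make type I interferon after sensing microbial nucleic acids or lipopolysaccharide, the latter by way of TLR4 and the adaptor TRIF (Ticam1), which TLR3 also uses. The products of the target genes bind viral RNA, degrade it, block entry or release of virus, or damp the signal itself.

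The promoters below belong to members that were called in a pneumonia comparison. They were chosen because they hold the ISRE letters before the start of the gene, and follow the order of the p-values in TLR3-KO. Each stretch lies before the start of its gene and runs 5′ to 3′ on the strand of the gene, from RefSeq sequence of build GRCm38.p6. Capitals mark the ISRE letters searched, which are GAAA and GAAA with any 2 bases between them, or their reverse complement. chr19:34640750-34640848 is the Ifit1 stretch on the plus strand, and chr19:34607734-34607847 and chr19:34583338-34583451 are those of I830012O16Rik and Ifit3, also on the plus strand. On the minus strand, chr5:120777690-120777769 belongs to Oas3, chr12:26456528-26456607 to Rsad2 and chr7:104465194-104465264 to Trim30a.
Ifit1: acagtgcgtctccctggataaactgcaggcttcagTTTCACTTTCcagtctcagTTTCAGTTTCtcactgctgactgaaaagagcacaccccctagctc
I830012O16Rik: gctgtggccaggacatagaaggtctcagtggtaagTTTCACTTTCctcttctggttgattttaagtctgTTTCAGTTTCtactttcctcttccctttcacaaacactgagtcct
Ifit3: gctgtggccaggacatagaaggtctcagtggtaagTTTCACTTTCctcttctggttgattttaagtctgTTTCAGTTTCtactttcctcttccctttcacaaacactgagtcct
Oas3: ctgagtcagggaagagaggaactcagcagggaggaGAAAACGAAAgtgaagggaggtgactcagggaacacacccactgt
Rsad2: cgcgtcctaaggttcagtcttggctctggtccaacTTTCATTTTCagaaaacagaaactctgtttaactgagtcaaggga
Trim30a: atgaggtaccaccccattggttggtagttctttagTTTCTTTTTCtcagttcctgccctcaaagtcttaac

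The stretches of Ifit3 and I830012O16Rik are the same 114 bases, and the promoter windows of these neighbouring genes share an identical run of 169 bases. Of the 34 members, 26 had a promoter entry of 300 bases, from 250 before to 50 after the start, and 14 of the 26 held the ISRE letters on either strand. Of all 27025 genes with an entry, 3.99% held these letters, and of all 32851 promoter entries 3.44% did. The shares were not compared by a test, because only 76.5% of the members had an entry, under the minimum of 80%. The members without a match were Mx1, Mx2, Oas2, Usp18, Rtp4, Ifi27l2a, Ifi204 and Parp14. The motif TTCNNNGAA, which is read by STAT dimers, was found in 5 of the 26 members and in 9.55% of all genes with an entry. Called members with an entry but without the ISRE letters in it were Ifit2, Oasl2, Cmpk2, Irf7, Xaf1 and Sp100. Isg15, Oas1a, Oas1g, Stat2, Bst2, Ifi205 and Trim30d held the letters and were not called. These are matches of letters in a window and were not measured as binding.

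The 16 libraries held 29667102 to 59640251 counted reads, while the series text speaks of 15 samples. Tlr3 itself was at 0.274 to 0.717 CPM (the reads of a gene scaled to the counted reads of its library) in the TLR3-KO libraries and at 2.18 to 4.53 CPM in the WT libraries. The 20 alveolar macrophage markers in the table summed to 34284 to 44204 CPM in all libraries, with no group apart and none of the 20 at 0 throughout. Xist was at 20.3 to 42.3 CPM in TLR3-KO controls 1 to 3 and at 0 to 0.230 CPM in the other libraries. The title of the series names the sex as male. In bulk RNA of this kind, fewer cells of a type and less RNA per cell cannot be told apart.

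Of the 34 members, 32 passed the filter on low counts and were tested. Ifi44, an interferon-inducible GTP-binding protein, had 20 reads in all 16 libraries together, 10 of them in a single TLR3-KO injured library. H28 (Ifi44l) had 0 reads in every library, which allows at most 3 reads per library by counting error alone. The dynamin-like GTPases Mx1 and Mx2 passed the filter at low depth, with 6 to 51 reads per library for Mx1 and 0 to 15 for Mx2. Per kilobase of exon, the highest levels in every group were those of Bst2, at 27.4 to 35.3 CPM per kb over the group means, followed by Ifi35 at 21.1 to 25.8 CPM per kb.

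Several members have near-identical copies, and their counts are uncertain where the counting could split reads between copies. The transcripts of Ifit3 shared 51.2% of their 50-base words with Ifit3b, those of Oas1a shared 57.6% with Oas1g, and Ifi204 and Ifi205 shared 20.02% and 18.6% of theirs with other genes, chiefly Ifi211. Ifit2, Oas2, Rsad2, Usp18, Irf7 and Cmpk2 shared none. How reads that match more than 1 place were counted is not given in the sources used here.

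Averaged over the genotypes, 16 members rose and 0 fell, and the log2 fold changes of the 16 ran from 0.37 for Trim30a to 3.70 for I830012O16Rik. These calls are at an adjusted p under 0.05 from edgeR's quasi-likelihood test over 12455 genes, of which 2.26% were called in either direction, 1.31% as higher and 0.955% as lower. The median log2 fold change of the members was 1.22 against 0.00 for all genes tested, and 31 of 32 were above 0, against 49.8% of all genes. The members were chosen with earlier results of these data known, so their comparison with all genes is a description only. In TLR3-KO mice alone 10 members rose and 0 fell, where 1.09% of all genes were called, 0.578% as higher and 0.514% as lower. The member median there was 1.25, and 29 of 32 values were above 0, against 48.5% of all genes. This contrast is mixed with Xist, which was at 20.3 to 42.3 CPM in 3 of the 4 controls and near 0 in the injured libraries, and with control 4 as the only TLR3-KO control, 0 members were called and the member median was 1.03. In WT mice alone 0 members were called, as was the case for all genes (0% called). There the member median was still 0.76, 30 of 32 values were above 0 against 51.3% of all genes, and 19 members were higher at an unadjusted p under 0.05, against 6.27% of all genes. DESeq2 called 7 members in WT, where 1.54% of all genes were called, and limma voom 0, where 0% were.

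**Figure D1:**
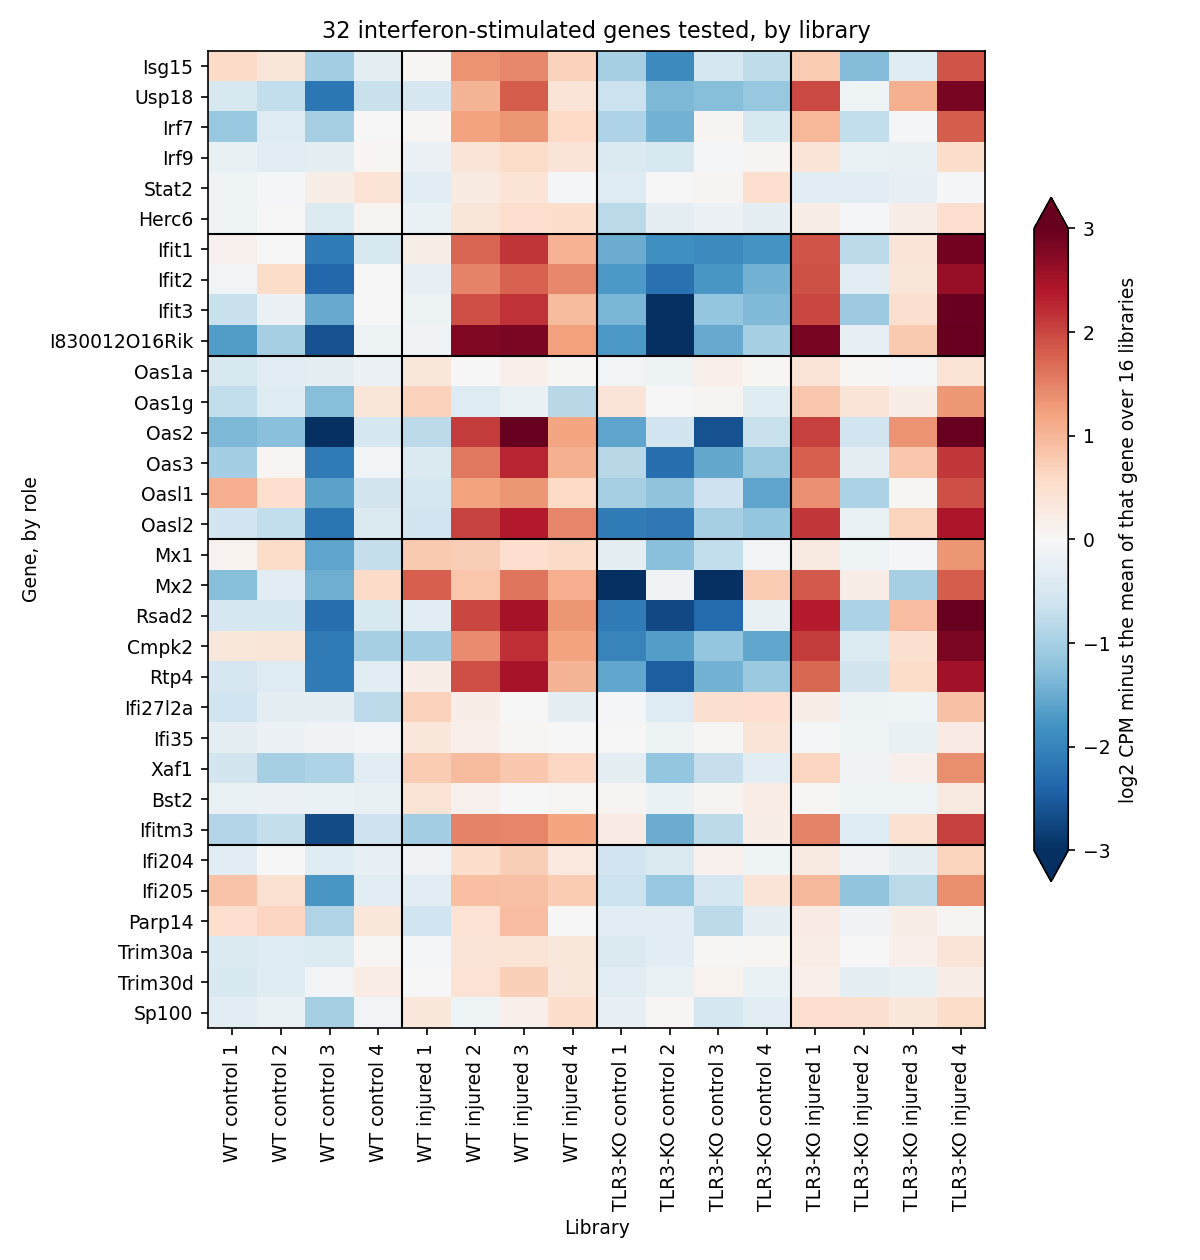
Expression of the 32 tested members in each of the 16 libraries, as log2 CPM minus the mean of that gene over all libraries (colour, capped at 3 in either direction), with genes in rows by role and libraries in columns by group. The IFIT family, Oas2, Oas3, Oasl2, Rsad2, Cmpk2 and Rtp4 are high in WT injured 2 to 4 and TLR3-KO injured 1 and 4, while Stat2, Ifi35 and Bst2 vary little.

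The libraries of a group were not alike. The mean log2 CPM over the 34 members was 1.42, 1.59, 0.55 and 1.61 in WT controls 1 to 4 and 1.84, 2.77, 2.95 and 2.39 in WT injured 1 to 4. In the TLR3-KO controls it was 0.98, 0.68, 1.04 and 1.42, and in the TLR3-KO injured libraries 2.86, 1.53, 2.03 and 3.41. Every injured library of TLR3-KO was above its controls, but TLR3-KO injured 2 exceeded the highest of them by little, and WT injured 1 was likewise the nearest to the WT controls. As group means these are 1.29 ± 0.50 and 2.49 ± 0.49 in WT and 1.03 ± 0.30 and 2.46 ± 0.84 in TLR3-KO (SD, n = 4 each). TLR3-KO injured 4 held the highest value of all 16 libraries for 20 of the 32 tested members, and TLR3-KO injured 2 the lowest of its group for 23 members. The median SD of a member within a group, on the log2 CPM scale, was 1.08 in the TLR3-KO injured group against 0.16 for all genes tested. In the WT injured group the corresponding values were 0.61 and 0.26. Controls spread as well, with 0.71 and 0.29 in WT and 0.39 and 0.31 in TLR3-KO.

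Neutrophil markers moved with the same libraries. The summed level of the 23 neutrophil markers in the table, among which Elane was at 0 in every library, was 102, 268, 442 and 155 CPM in WT injured 1 to 4 and 279, 140, 193 and 289.6 CPM in TLR3-KO injured 1 to 4. Within each injured group this is the order of the member means. The controls lay at 57.3 to 104 CPM in WT and 80.2 to 119 CPM in TLR3-KO. A two-sided exact permutation test of the sums gave p = 0.0571 in WT (adjusted over the marker lists 0.286) and p = 0.0286 in TLR3-KO (adjusted 0.0952), where 0.0286 is the smallest p that 4 against 4 allows. Recruited monocyte markers, 16 of 16 in the table, ranged from 521 to 768 CPM in WT controls, 542 to 898 in WT injured, 451 to 809 in TLR3-KO controls and 403 to 679 in TLR3-KO injured libraries, so that the groups overlapped. The part of neutrophils or other cells in the members' rise was not tested.

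**Figure D2:**
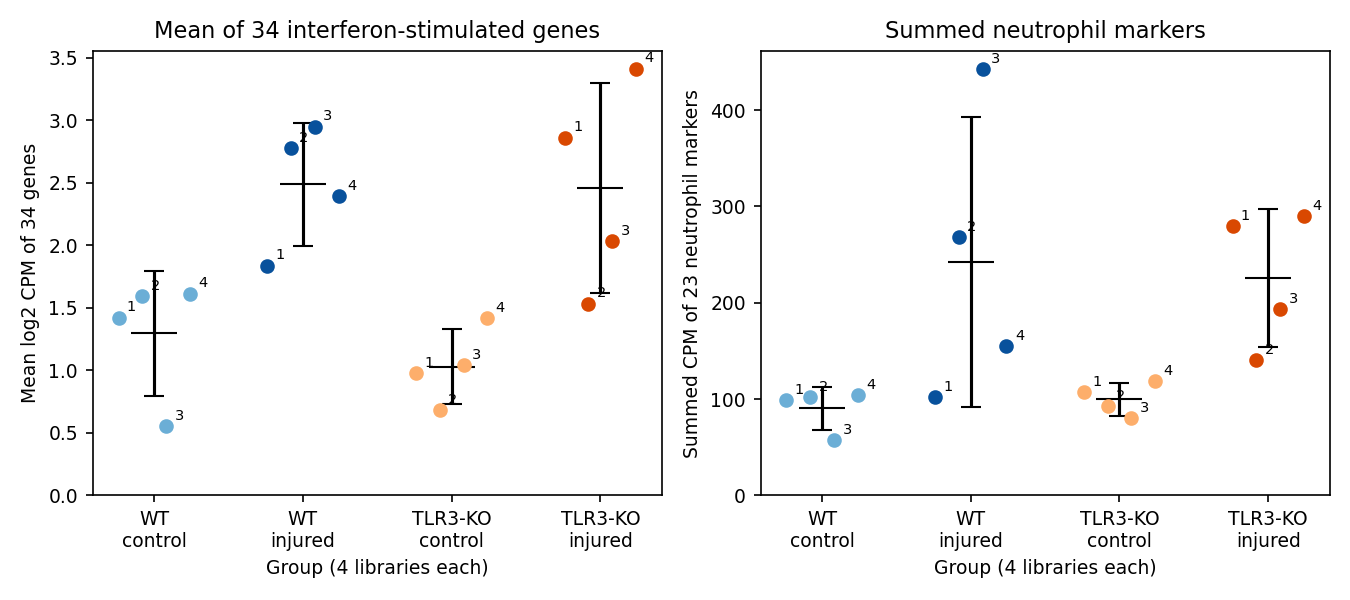
Left, mean log2 CPM of the 34 members in each library (points, numbered by replicate), with the group mean and SD (bars, n = 4). Right, the summed CPM of 23 neutrophil markers in the same libraries. WT injured 1 and TLR3-KO injured 2 are the lowest of their groups in either panel, and the injured libraries highest in the left panel are highest in the right.

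The IFIT proteins, which bind viral RNA and hold back its translation, gave the most uniform family: all 4 rose in TLR3-KO mice and in the average over genotypes. The genes lie side by side on chromosome 19 (GENCODE, mm10), with Ifit2 at 34550694 to 34576419, Ifit3 at 34583531 to 34588731, I830012O16Rik at 34607970 to 34613401 and Ifit1 at 34640871 to 34650009, all on the plus strand. Ifit1, a sensor of viral RNA caps, was at 6.89, 6.19, 1.45 and 4.49 CPM in the WT controls and 7.04, 21.1, 27.5 and 12.9 CPM after pneumonia, each time for replicates 1 to 4. In TLR3-KO it was at 2.23, 1.73, 1.64 and 1.84 CPM in the controls and 23.1, 3.55, 8.19 and 46.5 CPM after pneumonia, so that neither genotype's groups overlapped, although WT injured 1 barely exceeded WT control 1. Its log2 fold change was 3.38 ± 0.69 (SE) in TLR3-KO (adjusted p = 0.0377), 1.70 ± 0.64 (SE) in WT (adjusted p = 0.358) and 2.54 ± 0.47 (SE) in the average (adjusted p = 0.0136).

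Ifit2, a relative that can promote cell death, was at 2.77, 4.30, 0.566 and 2.88 CPM in the WT controls and 2.48, 8.18, 9.98 and 7.98 CPM after pneumonia. Its TLR3-KO libraries held 0.877, 0.610, 0.864 and 1.08 CPM in the controls and 11.01, 2.35, 3.78 and 18.1 CPM after pneumonia. The WT groups overlapped, because WT injured 1 lay below 3 of the 4 controls, and the TLR3-KO groups did not. The log2 fold change was 3.30 ± 0.66 (SE) in TLR3-KO (adjusted p = 0.0377) and 1.31 ± 0.61 (SE) in WT (adjusted p = 0.455). Ifit3, which stabilises IFIT1 on RNA, was at 1.64, 2.31, 0.911 and 2.63 CPM in the WT controls and 2.35, 10, 11.8 and 5.07 CPM after pneumonia. For Ifit3 the TLR3-KO values were 0.995, 0.295, 1.16 and 1.03 CPM in the controls and 10.6, 1.23, 3.61 and 20.4 CPM after pneumonia. I830012O16Rik, its near copy, was at 0.302, 0.480, 0.148 and 0.877 CPM in the WT controls and 0.905, 6.74, 6.95 and 2.29 CPM after pneumonia. In TLR3-KO this copy was at 0.284, 0.0421, 0.337 and 0.483 CPM in the controls and 7.10, 0.825, 1.69 and 13.4 CPM after pneumonia. Both copies were lowest in TLR3-KO control 2 and highest in TLR3-KO injured 4, and the TLR3-KO groups did not overlap for either. I830012O16Rik had the largest log2 fold change of all members in TLR3-KO, 4.27 ± 0.91 (SE) (adjusted p = 0.0415), with 3.30 ± 0.73 (SE) for Ifit3 (adjusted p = 0.0433).

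The oligoadenylate synthetase family split. These enzymes make the short adenylate chains that activate RNase L, and Oasl1 and Oasl2 are relatives of which Oasl1 is known to restrain translation of Irf7. In the average Oas2, Oas3 and Oasl2 rose, and in TLR3-KO alone Oas3 and Oasl2. Oas3, on chromosome 5 at 120753098 to 120777661 (minus strand), was at 1.56, 3.29, 0.714 and 2.99 CPM in the WT controls and 2.35, 9.45, 15.5 and 6.62 CPM after pneumonia. The TLR3-KO libraries had Oas3 at 1.78, 0.652, 1.10 and 1.45 CPM in the controls and 10.9, 2.62, 5.56 and 13.9 CPM after pneumonia. They did not overlap, and the log2 fold change was 2.66 ± 0.61 (SE) (adjusted p = 0.0487), with 1.87 ± 0.59 (SE) in WT (adjusted p = 0.265).

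Oasl2 was at 2.26, 2.03, 0.738 and 2.52 CPM in the WT controls and 2.28, 14.0, 17.7 and 9.37 CPM after pneumonia. Its TLR3-KO values were 0.782, 0.758, 1.71 and 1.52 CPM in the controls and 14.9, 2.96, 5.43 and 18.4 CPM after pneumonia. The TLR3-KO groups were apart, while in WT the first injured library lay within the controls. Its log2 fold changes were 3.07 ± 0.64 (SE) in TLR3-KO (adjusted p = 0.0377) and 2.39 ± 0.61 (SE) in WT (adjusted p = 0.205). Oas2 was at 0.369, 0.388, 0.0985 and 0.658 CPM in the WT controls and 0.543, 4.09, 9.78 and 2.17 CPM after pneumonia. In TLR3-KO mice Oas2 was at 0.308, 0.631, 0.148 and 0.598 CPM in the controls and 4.00, 0.634, 2.43 and 7.70 CPM after pneumonia. WT injured 1 lay below WT control 4, and TLR3-KO injured 2 stood level with the highest TLR3-KO control. Only the average of the genotypes passed for Oas2, at 3.20 ± 0.59 (SE) (adjusted p = 0.0133). Oas1a and Oas1g, which share much of their sequence, had log2 fold changes of 0.26 ± 0.09 (SE) and 0.42 ± 0.27 (SE) in the average and did not pass (adjusted p = 0.135 and 0.476). Oasl1 did not pass either, with 1.99 ± 0.63 (SE) in TLR3-KO (adjusted p = 0.0990) and 0.46 ± 0.60 (SE) in WT (adjusted p = 0.804).

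Among the 12 antiviral effectors, of which 10 were tested, Rsad2, Cmpk2 and Rtp4 rose in TLR3-KO and these and Xaf1 and Ifitm3 in the average. Rsad2 encodes viperin, which makes a chain-terminating nucleotide, and Cmpk2 is its neighbour on chromosome 12 and a mitochondrial nucleotide kinase. Rsad2 was at 7.68, 7.58, 2.24 and 7.84 CPM in the WT controls and 8.54, 43.1, 61.0 and 27.1 CPM after pneumonia. The TLR3-KO libraries held 2.51, 1.64, 2.15 and 9.31 CPM in the controls and 55.5, 5.56, 20.6 and 107 CPM after pneumonia. Here TLR3-KO control 4 exceeded TLR3-KO injured 2, so that the groups overlapped. The log2 fold change in TLR3-KO was 3.56 ± 0.82 (SE), with an adjusted p of 0.04997 just under the threshold, and 2.33 ± 0.78 (SE) in WT (adjusted p = 0.288). Per kilobase Rsad2 was the 17th of the 34 members in the TLR3-KO controls and the 4th in the injured TLR3-KO group, and the 18th and 10th in WT.

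Cmpk2 was at 3.20, 3.24, 0.566 and 1.26 CPM in the WT controls and 1.24, 6.80, 11.5 and 5.84 CPM after pneumonia. In TLR3-KO it held 0.616, 0.800, 1.12 and 0.851 CPM in the controls and 10.9, 1.90, 3.51 and 17.8 CPM after pneumonia. Its WT groups overlapped and its TLR3-KO groups did not, with log2 fold changes of 1.45 ± 0.69 (SE) (adjusted p = 0.470) and 3.27 ± 0.75 (SE) (adjusted p = 0.0488). Rtp4, a chaperone of membrane receptors, was at 2.25, 2.42, 0.738 and 2.55 CPM in the WT controls and 3.65, 12.3, 17.8 and 6.43 CPM after pneumonia. The TLR3-KO values of Rtp4 were 1.07, 0.568, 1.18 and 1.47 CPM in the controls and 10.6, 2.18, 4.69 and 18.3 CPM after pneumonia. Neither genotype's groups overlapped, and the log2 fold change was 3.01 ± 0.63 (SE) in TLR3-KO (adjusted p = 0.0386) and 2.21 ± 0.60 (SE) in WT (adjusted p = 0.206).

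Xaf1, an antagonist of the apoptosis inhibitor XIAP, was smaller in its change and steadier between libraries. It was at 1.53, 1.12, 1.18 and 1.81 CPM in the WT controls and 3.83, 4.39, 3.95 and 3.48 CPM after pneumonia. In TLR3-KO Xaf1 was at 1.82, 1.01, 1.39 and 1.82 CPM in the controls and 3.55, 2.09, 2.49 and 5.96 CPM after pneumonia. It was the only member of which all 8 injured libraries lay above all 8 controls, where 0.297% of all genes did so. Its log2 fold change in the average was 1.26 ± 0.21 (SE) (adjusted p = 0.00941). Ifitm3, which blocks the fusion of virus in endosomes, was at 1.76, 1.96, 0.492 and 2.08 CPM in the WT controls and 1.58, 9.09, 8.91 and 7.31 CPM after pneumonia. The TLR3-KO libraries of Ifitm3 read 3.82, 1.14, 1.88 and 3.68 CPM in the controls and 9.03, 2.45, 4.42 and 13.3 CPM after pneumonia. Its groups overlapped in either genotype, and the average passed narrowly at 1.69 ± 0.42 (SE) (adjusted p = 0.0488).

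The other tested effectors did not pass in any comparison. Bst2 (tetherin), which holds budding virus at the cell surface, lay between 24.3 and 38.0 CPM in all 16 libraries, and its log2 fold change in the average was 0.07 ± 0.09 (SE). That average joins 0.25 ± 0.12 (SE) in WT, where the groups did not overlap, and -0.10 ± 0.12 (SE) in TLR3-KO, where they did. Ifi35, a partner of the interferon-induced protein NMI, was at 33.2, 35.9, 37.7 and 38.6 CPM in the WT controls and 50.9, 44.8, 42.5 and 40.0 CPM after pneumonia. Its TLR3-KO values were 40.6, 36.7, 41.5 and 53.4 CPM in the controls and 39.3, 37.3, 34.8 and 48.1 CPM after pneumonia. These spread little. The log2 fold change of Ifi35 was 0.18 ± 0.12 (SE) in WT, where every injured library lay above every control. In TLR3-KO it was -0.17 ± 0.12 (SE), with overlap, and in the average 0.01 ± 0.08 (SE). Mx1, Mx2 and Ifi27l2a had 0.84 ± 0.32 (SE), 1.79 ± 0.57 (SE) and 0.29 ± 0.19 (SE), with adjusted p from 0.117 to 0.504 in the average.

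The 6 members that carry or damp the interferon signal moved unequally. Usp18, the protease that removes ISG15 from proteins and silences the receptor, was at 0.671, 0.548, 0.197 and 0.576 CPM in the WT controls and 0.647, 1.91, 3.29 and 1.21 CPM after pneumonia. In TLR3-KO Usp18 was at 0.592, 0.358, 0.380 and 0.414 CPM in the controls and 3.69, 0.846, 1.96 and 6.72 CPM after pneumonia. The TLR3-KO groups did not overlap, and its log2 fold change was 2.85 ± 0.60 (SE) (adjusted p = 0.0412), with 1.68 ± 0.58 (SE) in WT (adjusted p = 0.311). Irf7, the factor that amplifies interferon transcription, was at 4.64, 7.74, 5.12 and 10.3 CPM in the WT controls and 10.6, 23.4, 25.3 and 15.4 CPM after pneumonia. Its TLR3-KO libraries held 5.36, 3.79, 10.8 and 7.45 CPM in the controls and 20.4, 6.11, 9.78 and 35.7 CPM after pneumonia. Irf7 did not overlap in WT but did in TLR3-KO, where injured 2 and 3 lay within the controls. The 2 genotypes had close log2 fold changes of 1.32 ± 0.46 (SE) and 1.34 ± 0.46 (SE), neither of which passed, and the average passed at 1.33 ± 0.33 (SE) (adjusted p = 0.0462).

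Isg15, the ubiquitin-like modifier, was at 10.5, 9.07, 3.52 and 5.89 CPM in the WT controls and 7.27, 18.2, 19.2 and 11.5 CPM after pneumonia. In TLR3-KO Isg15 was at 3.53, 1.89, 4.997 and 4.19 CPM in the controls and 11.998, 2.88, 5.53 and 26.5 CPM after pneumonia. The groups overlapped in each genotype and no comparison passed (average 1.21 ± 0.39 (SE), adjusted p = 0.118). The ISGF3 subunits Stat2 and Irf9 did not pass in any comparison. Stat2, the member with the highest mean CPM, was at 54.3, 57.4, 67.5 and 79.3 CPM in the WT controls and 47.5, 71.9, 79.0 and 58.0 CPM after pneumonia. The TLR3-KO values of Stat2 were 45.4, 58.8, 63.1 and 84.8 CPM in the controls and 47.4, 47.9, 50.4 and 57.9 CPM after pneumonia. They overlapped throughout, and Stat2 was the only member below 0 in the average, at -0.24 ± 0.11 (SE) (adjusted p = 0.300). Irf9 was at 14.0, 12.8, 13.4 and 17.05 CPM in the WT controls and 14.4, 21.5, 23.9 and 21.5 CPM after pneumonia. For Irf9 the TLR3-KO libraries read 12.1, 11.6, 15.9 and 17.2 CPM in the controls and 21.5, 14.2, 13.9 and 23.7 CPM after pneumonia. Injured libraries ran up to 23.9 CPM and overlapped the controls, and the average of 0.35 ± 0.13 (SE) did not pass (adjusted p = 0.192). Herc6, the mouse ligase for ISG15, had 0.43 ± 0.12 (SE) (adjusted p = 0.0767).

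In the last set, of 6 nuclear, TRIM and ADP-ribose genes, Sp100 and Trim30a rose in the average and by little. Sp100, a component of nuclear bodies, was at 11.4, 12.5, 7.16 and 13.5 CPM in the WT controls and 17.9, 13.2, 15.8 and 20.6 CPM after pneumonia. Its TLR3-KO libraries held 12.1, 14.6, 9.97 and 11.3 CPM in the controls and 20.5, 19.96, 17.9 and 21.1 CPM after pneumonia. They were apart in TLR3-KO only, and the average was 0.57 ± 0.14 (SE) (adjusted p = 0.0385). Trim30a, an inhibitor of TRAF6 signalling, was at 20.7, 21.9, 20.9 and 28.9 CPM in the WT controls and 26.6, 36.2, 37.2 and 35.4 CPM after pneumonia. In TLR3-KO Trim30a was at 20.6, 21.9, 28.6 and 29.2 CPM in the controls and 32.6, 28.2, 31.0 and 36.7 CPM after pneumonia. The groups overlapped in either genotype, and the average was 0.37 ± 0.09 (SE) (adjusted p = 0.0479). Trim30d, the DNA sensors Ifi204 and Ifi205 and the ADP-ribosyltransferase Parp14 did not pass, with log2 fold changes of 0.17 to 0.60 in the average.

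**Figure D3:**
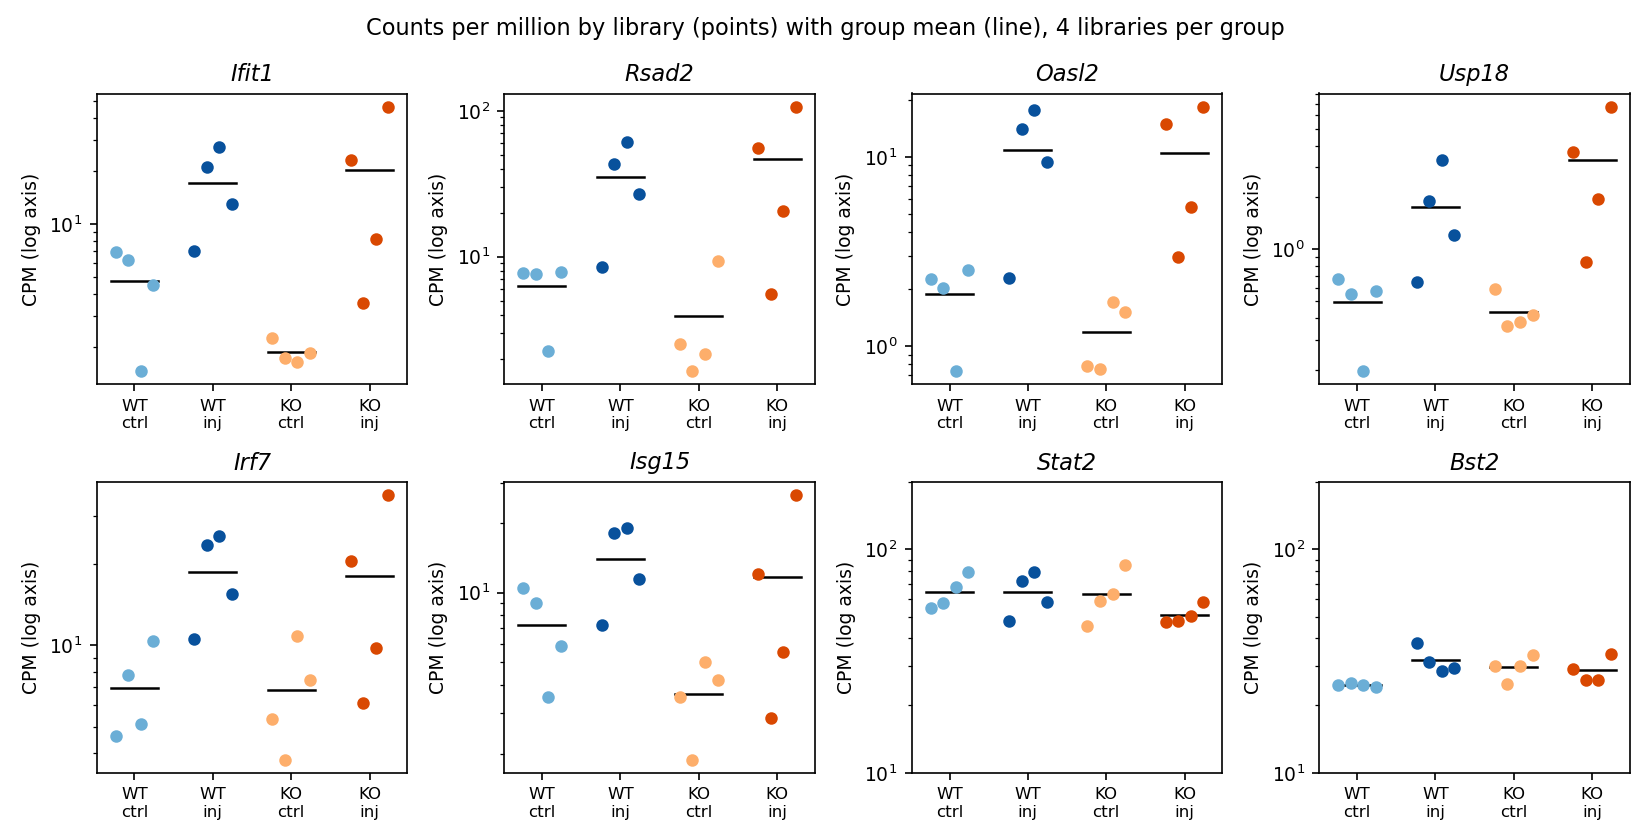
CPM of 8 members in each library (points) with the group mean (line), on log axes, for WT and TLR3-KO (KO) controls (ctrl) and injured (inj) libraries. Ifit1, Oasl2 and Usp18 lie higher in all TLR3-KO injured libraries than in the TLR3-KO controls, Rsad2, Irf7 and Isg15 overlap there, and Stat2 and Bst2 stay within narrow ranges.

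The member counts rest on few libraries. The 10 calls in TLR3-KO fell to 0 when TLR3-KO control 1, 3 or 4 or TLR3-KO injured 1, 3 or 4 was left out. In those fits the share of all genes called also fell, from 1.09% to 0.278%, 0.0477%, 0.0876%, 0.0317%, 0% and 0.167%, in that order. There were 8 calls without injured 2, where 0.183% of all genes were called, and 12 without control 2, where 9.83% were. DESeq2 gave 16 calls (8.28% of all genes) and limma voom 0 (0.851%). A fit of the 2 groups alone gave 0 (0.273%), and no filter on low counts 1 (0.249%). With the replicate number as a block there were 0 (0.0883%). The 16 calls of the average stayed between 11 and 16 when any single library was left out, beside 0.985% to 3.13% of all genes. Ifit1, Ifit2, Ifit3, I830012O16Rik, Oas2, Oas3, Oasl2, Rsad2, Rtp4, Usp18 and Xaf1 were called in each of these fits that left out 1 library. By limma voom the calls were 5, where 1.8% of all genes were called. The average, too, is mixed with Xist through TLR3-KO controls 1 to 3. With these left out together the member median of the average was 1.16. That fit holds 1 TLR3-KO control, so its calls cannot show whether the 16 calls depend on the libraries with Xist. The member median in TLR3-KO without injured 4 was 0.78.

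Counted by overlap, 10 members in WT had every injured library above every control, against 3.83% of all genes, and 14 did in TLR3-KO, against 11.2%. The 10 in WT were Ifit1, I830012O16Rik, Mx2, Oas1a, Rsad2, Irf7, Rtp4, Ifi35, Xaf1 and Bst2. Those in TLR3-KO were the IFIT family, Oas2, Oas3, Oasl2, Usp18, Cmpk2, Rtp4, Xaf1, Sp100, Herc6 and Parp14. No member was lower without overlap in either genotype, where 0.682% and 3.05% of all genes were.

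**Figure D4:**
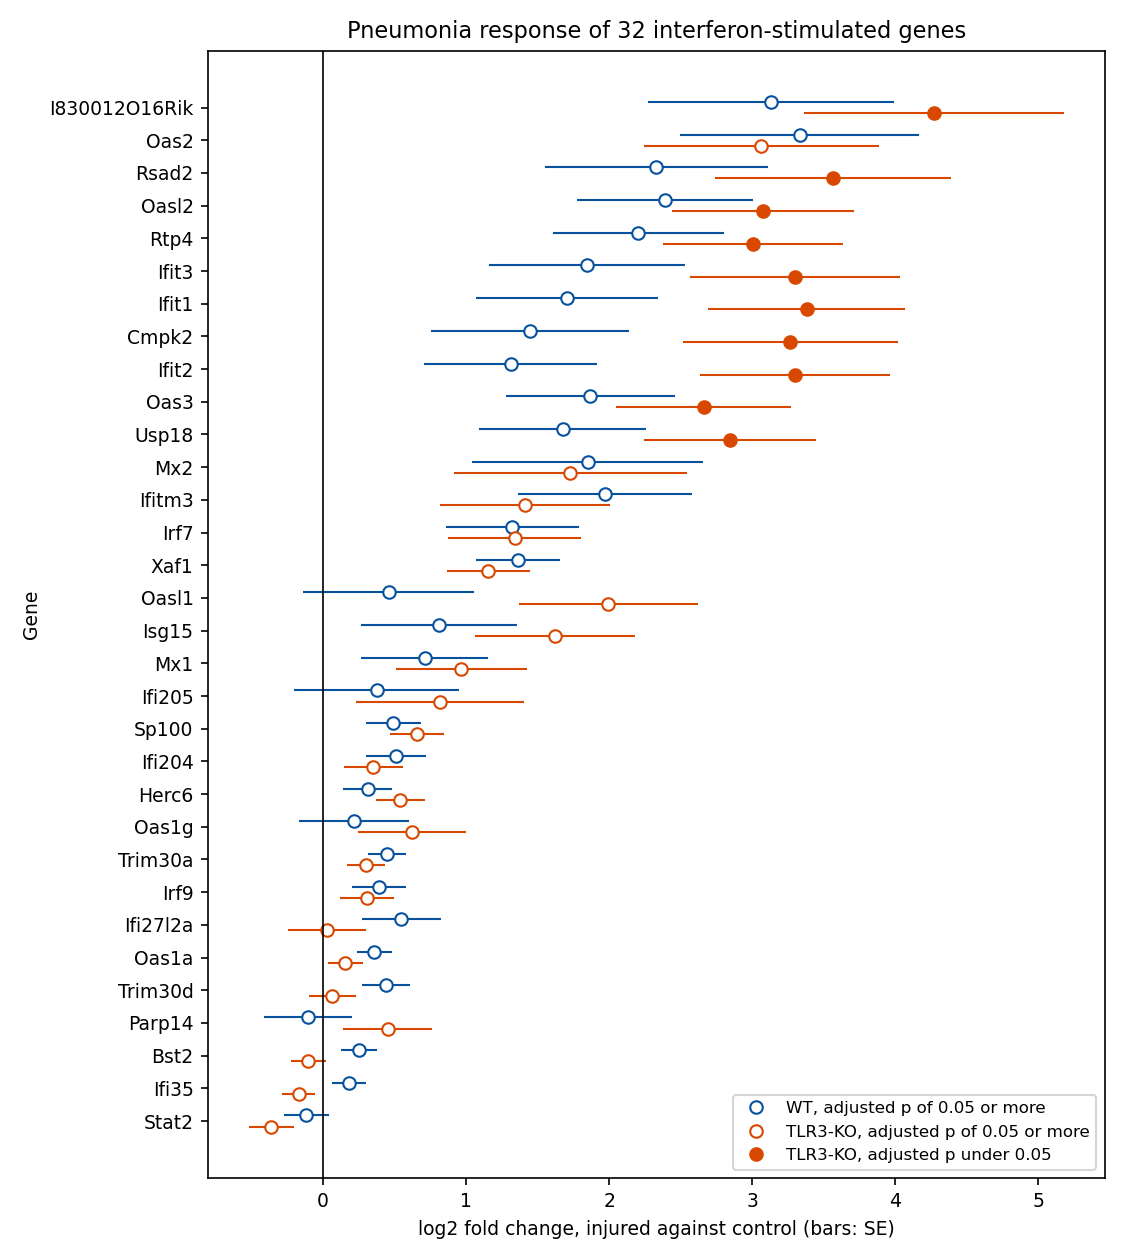
The log2 fold change of each of the 32 tested members, injured against control, in WT (blue) and TLR3-KO (orange), with SE bars, ordered by the average of the genotypes. Filled points passed at an adjusted p under 0.05: there are 10 in TLR3-KO and 0 in WT, and the SE bars of the genotypes overlap for many members.

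Whether loss of TLR3 altered the members was asked in the controls, after pneumonia and as a difference of the responses. These comparisons share libraries with those above. In controls, TLR3-KO against WT, 0 members were called, where 0.658% of all genes were, and the member median was -0.20 against 0.04. The median was -0.41 without WT control 3 and -0.13 without WT control 2. It was -0.49 with controls 1 and 2 alone and -0.01 with controls 3 and 4 alone. The TLR3-KO side of this comparison is mixed with Xist through the same 3 libraries, and with control 4 as its only library the median was -0.09. At an unadjusted p under 0.05, 4 members were lower, Ifit1, Ifit2, Oasl1 and Parp14, where 10.2% of all genes were, and 0 were higher, where 9.59% were. Oas1a was the only member with every TLR3-KO control above every WT control, at 15.9 to 19.5 against 12.5 to 15.6 CPM, where 5.92% of all genes were. Ifit2 had -1.71 ± 0.65 (SE) (adjusted p = 0.173) and Oasl1 -1.37 ± 0.62 (SE) (adjusted p = 0.237). DESeq2 called Ifit2 alone of the 32 members, where 6.66% of all genes were called, and limma voom 0 members, where 0.859% were. With the replicate number as a block, since control libraries of the same number deviated together, 0 members were called and the calls over all genes went from 82 to 31. Without WT control 3, which was the lowest of its group for 22 members, 1 member, Parp14, was called as lower. In that fit 3.28% of all genes were called in either direction.

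After pneumonia, TLR3-KO against WT, 0 members were called, where 0.602% of all genes were. The member median was -0.09, which turned to 0.14 without TLR3-KO injured 2 and to 0.08 without WT injured 3 or TLR3-KO injured 3, and was -0.38 without TLR3-KO injured 4, -0.16 without WT injured 1, -0.15 without TLR3-KO injured 1 and -0.04 without WT injured 2. The log2 differences ran from -0.44 for Trim30d to 0.89 for Usp18. Stat2 and Trim30d were the 2 members lower at an unadjusted p under 0.05, where 7.79% of all genes were, and 0 were higher, where 8.25% were. DESeq2 and limma voom called 0 members each, where 3.57% and 0.578% of all genes were called. For Ifit1 the difference was 0.23 ± 0.61 (SE), for Rsad2 0.41 ± 0.74 (SE) and for Irf7 -0.07 ± 0.45 (SE). With errors of this size a 2-fold difference in these genes was not detectable at the threshold.

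The response itself, TLR3-KO against WT, did not differ at the threshold for any member, nor for any of the 12455 genes (0% called). The member median was 0.24, but -0.0011 without TLR3-KO injured 4. It was 0.13 to 0.16 without WT control 1, 2 or 4, 0.43 without WT control 3 and 0.38 without TLR3-KO injured 2. With controls 1 and 2 as the only controls the median was 0.45, where 0 members and 0.449% of all genes were called. With controls 3 and 4 it was -0.14. This comparison is also mixed with Xist through TLR3-KO controls 1 to 3. With control 4 as the only TLR3-KO control the median was -0.0043. At the level of single genes, 1 member, Ifit2, was higher at an unadjusted p under 0.05, where 8.57% of all genes were, with 1.99 ± 0.87 (SE) (adjusted p = 0.263). DESeq2 and limma voom called 0 members here, where 0.803% and 0% of all genes were called. The 10 calls in TLR3-KO beside 0 in WT are therefore not a tested difference between the genotypes. For Ifit1 the difference of the log2 fold changes was 1.68 ± 0.90 (SE), for Cmpk2 1.82 ± 0.99 (SE) and for Irf7 0.02 ± 0.65 (SE).

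The genes around the members in the pathway were counted from lists by role, in the same fit. Over all genes tested, 2.26% were called in the average, 1.31% as higher and 0.955% as lower, and 1.09% were called in TLR3-KO. Of the interferon genes themselves 19 were in the table and 0 passed the filter. Ifnb1, the gene of interferon beta, had 14 reads in all, 4 in the WT controls, 4 in the WT injured, 3 in the TLR3-KO controls and 3 in the TLR3-KO injured libraries, which is too few to compare. Ifng, the gene of interferon gamma, a cytokine of T and NK cells, had 2, 31, 4 and 20 reads in the same groups. WT injured 4 alone held 20 of the 31, beside 1, 7 and 3 in WT injured 1 to 3, and TLR3-KO injured 1 to 4 held 8, 0, 6 and 6. Of the receptors and JAK-STAT genes 13 were tested and 0 called in any comparison. In the average the log2 fold change was 0.02 ± 0.09 (SE) for Ifnar1 and -0.03 ± 0.07 for Ifnar2.

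Among 16 tested sensors and adaptors, Zbp1, a sensor of left-handed nucleic acids, rose in TLR3-KO (1.35 ± 0.30, SE, adjusted p = 0.0433) and in the average (1.26 ± 0.21, adjusted p = 0.00958). Ticam1, the TRIF adaptor, had -0.16 ± 0.19 in the average. Of 13 kinases and IRF factors, Irf1, an activator of the same promoters, rose in the average by 0.67 ± 0.15 (adjusted p = 0.0265), and Irf2, its antagonist, fell by 0.44 ± 0.10 (adjusted p = 0.0297). Tbkbp1, a partner of the kinase TBK1, rose in TLR3-KO by 0.91 ± 0.20 (adjusted p = 0.0425). Irf3 had -0.15 ± 0.11 in the average and did not pass. Of 13 negative regulators Nlrc5 rose in the average (1.22 ± 0.26, adjusted p = 0.025).

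A list of 48 other tested interferon-stimulated genes had a median of 0.17 in the average, against 1.22 for the members. Isg20, Ddx60, Slfn1, Slfn4, Slfn5, Trim25, Ifi47 and Tap1 rose in the average and 0 fell, and Ddx60 and Ifi47 rose in TLR3-KO. Slfn1 had the largest value, 3.37 ± 0.69, and the ubiquitin ligase Trim25 the smallest, 0.43 ± 0.10. Of 24 tested genes induced by interferon gamma, 11 rose in the average and 0 fell, with a median of 1.06. They were Gbp3, Gbp4, Gbp6, Gbp7, Gbp9, Iigp1, Tgtp1, Tgtp2, Ifi47, Irf1 and Nos2, which are mostly GTPases that attack the vacuoles of intracellular microbes. Of these, Ifi47 and Irf1 were also counted in the lists above. Nos2, the inducible nitric oxide synthase, had 5.53 ± 1.09 (adjusted p = 0.0224). In TLR3-KO Gbp6, Gbp7 and Ifi47 rose, while the class II genes H2-Aa, H2-Ab1 and H2-Eb1 fell by 2.32, 2.19 and 2.31 on the log2 scale. The 10 dendritic cell markers, 10 of 10 in the table and none at 0 throughout, summed to 94.1 to 134 CPM in the TLR3-KO controls and 63.3 to 77.6 CPM in the TLR3-KO injured libraries (two-sided exact permutation p = 0.0286, adjusted 0.0952). Their part in the fall was not tested. In the controls Gbp6 was lower in TLR3-KO, by a log2 difference of -2.06 (adjusted p = 0.0476), the only call in these lists there besides Tlr3.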

How the data were processed

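RNA from macrophages of 16 lavage samples was sequenced from TruSeq mRNA libraries as paired reads of 50 bases, per the labels' protocols. The deposited table holds whole-number read counts per gene symbol. The submitters' processing notes name FastQC 0.11.3, TopHat2 2.0.13, Bowtie2 2.2.1, Cufflinks, Cuffdiff 2.1.1 and build mm10. The version, strand setting and annotation of the counting are not given in the sources used here.

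Groups were taken from the titles, and 4 libraries per group entered every fit. The counts were tested with edgeR 4.0.16 (R 4.3.3; TMM scaling, filterByExpr with a minimum count of 10, robust quasi-likelihood, 1 coefficient per group), with Benjamini-Hochberg adjustment over the 12455 genes tested and a threshold of 0.05. The SE is the fold change divided by the square root of the test's F. CPM used total counts, and log2 CPM added 0.5 reads. Scripts were tested on simulated data. DESeq2 1.42.0 and limma voom 3.58.1 were alternatives. Marker sums were compared by exact permutation.

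Gene positions are from GENCODE on mm10. The members, lists and roles were chosen with earlier results of these data known. Per-library values were given for called members, for the 2 members of highest mean CPM and for Irf7, Stat2, Irf9, Usp18 and Isg15, and pathway genes were named if called, with a few fixed ones, of which 1 is not reported here. The robust option was chosen after seeing the data; without it the 10 and 16 member calls were the same in number.

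Same-numbered control libraries of WT and TLR3-KO correlated in their deviations from the group means (0.43 to 0.59), and all 8 of these libraries correlated best with their own number. The replicate number was therefore used as a block beside that comparison. The labels do not say what the number stands for.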

Additional observations from a re-analysis of the deposited data

Results flagged for a closer look

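Within the groups of 4 libraries, a library was set apart when its gap to the nearest other was large against the range of its group by Dixon's 95% criterion. This held for 6 of the 132 sets examined, where chance gives about 1 in 20. Rsad2 was at 2.24 CPM in WT control 3 against 7.58 to 7.84 CPM in the other WT controls, and at 9.31 CPM in TLR3-KO control 4 against 1.64 to 2.51 CPM in the others of that group. Rtp4 was at 0.738 CPM in WT control 3 against 2.25 to 2.55 CPM. Parp14 was at 11.4 CPM in TLR3-KO control 3 against 15.7 to 16.5 CPM. Trim30a was at 28.9 CPM in WT control 4 against 20.7 to 21.9 CPM, and at 26.6 CPM in WT injured 1 against 35.4 to 37.2 CPM.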

How the results depend on the processing

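No called value of a member changed sign under any alternative. In WT the member calls of 0 became 7 with DESeq2, where 1.54% of all genes were called. They became 2 of 32 with controls 1 and 2 as the only controls, where 12.9% of all genes were called. The WT member median became 0.55 with controls 1 and 2 alone and 1.51 with controls 3 and 4 alone. In TLR3-KO the 10 calls became 16 with DESeq2 (8.28% of all genes), 0 with limma voom (0.851%) and 1 without a filter (0.249%). They became 0 when only the 2 groups were fitted (0.273%). With controls 1 and 2 as the only controls they were 0 (0.654%), and with controls 3 and 4 they were 12 of 32 (32.1%). With control 4 as the only TLR3-KO control the member median was 1.03. In the average the 16 calls became 5 with limma voom (1.8% of all genes), 15 with controls 1 and 2 (12%) and 19 with controls 3 and 4 (27.2%). With control 4 as the only TLR3-KO control the median of the average was 1.16. The genotype comparison in controls went from 0 to 1 call with DESeq2, where 6.66% of all genes were called. With the tested members only, the mean log2 CPM was 3.00 in WT injured and 1.49 in TLR3-KO control libraries.

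Leaving out 1 library at a time gave 0 to 12 calls in TLR3-KO, 11 to 16 in the average, 0 to 1 for genotype in controls and 0 to 0 in WT. The shares of all genes called in the same fits were 0% to 9.83%, 0.985% to 3.13%, 0.135% to 3.7% and 0% to 0.0794%. The cause of these shifts was not tested, beyond fewer libraries entering each fit.

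With the replicate number as a block, the calls were 0 in TLR3-KO, where 6 of 8 libraries correlated best with their own number, and 13 in the average, and no other member call changed. The shares of all genes called were 0.0883% in TLR3-KO and 1.75% in the average. Same-numbered WT control and injured libraries correlated at -0.26 to -0.12, with 0 of 8 best with their own.

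Over all genes, calls in WT ran from 0 to 1631 (12.9%), the latter with controls 1 and 2 as the only controls. With controls 3 and 4 as the only controls they reached 4108 (32.1%) in TLR3-KO and 3474 (27.2%) in the average. Leaving out 1 library took them down to 0 in TLR3-KO and to 124 in the average. Mx2, Ifi44, H28 and the interferon genes were limited by depth, and the near copies Ifit3 and I830012O16Rik by shared sequence.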

Other observations

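Outside the list, the 10 genes whose log2 CPM followed the mean of the 34 members most closely over the 16 libraries, among 12423 candidates, were Ifi47, Tgtp1, Upp1, Slfn5, Hdc, Cass4, Lcn2, Rasip1, Fgl2 and Ddx60, with Pearson r from 0.957 for Ifi47 to 0.919 for Ddx60. This is a description over libraries that share groups and cell composition, and the genes were picked for it. Ifi47, Tgtp1, Slfn5 and Ddx60 are interferon-inducible. Hdc, histidine decarboxylase, is on the neutrophil marker list, and Lcn2 encodes the neutrophil granule protein lipocalin. Lcn2 was at 2.78, 3.24, 0.246 and 2.08 CPM in the WT controls and 0.466, 16.7, 43.2 and 8.11 CPM in the WT injured libraries. In TLR3-KO it was at 0.972, 0.400, 0.464 and 1.01 CPM in the controls and 33.0, 3.72, 10.3 and 51.8 CPM after pneumonia. WT injured 1 and TLR3-KO injured 2 are its lowest injured libraries, as for the members.

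How far members followed each other also varied. The correlation of a member with the mean of the other members over the 16 libraries was 0.99 for Rtp4, 0.98 for Rsad2 and 0.97 for Oasl2, but 0.42 for Bst2, 0.32 for Ifi35 and 0.03 for Stat2. Erythroid markers, 8 of 10 in the table and with Hba-a1 at 0 throughout, summed to 11.4 to 151 CPM in the WT controls and 331 to 710 CPM in the WT injured libraries, and to 41.4 to 495 and 73.8 to 200 CPM in TLR3-KO. Erythroid sums were 511, 331, 710 and 432 CPM in WT injured 1 to 4 and 74.2, 73.8, 140 and 199.5 CPM in TLR3-KO injured 1 to 4. The highest library of each injured group, and the lowest in TLR3-KO, were those of the member mean, while the lowest in WT and the order between were not.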
